A study of Mus musculus with 60 samples.

Results

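The genes described are those of the cytoplasmic ribosomal proteins, the proteins that together with ribosomal RNA make up the large (60S) and small (40S) subunits of the ribosome outside mitochondria. A probe was a member when its gene symbol, as annotated or as updated by Entrez identifier, was Rpl or Rps with a number and an optional a, x or l, or was Rplp0, Rplp1, Rplp2 or Rpsa. Kinases of the Rps6k family, genes of mitochondrial ribosomal proteins and pseudogenes were left out. The rule found 73 probes for 65 genes among 21705 mouse probes. Of these, 68 probes for 62 genes were measured well enough to be tested, among 9719 probes for 8107 genes tested in all. They comprised 39 probes for 60S proteins other than the stalk, 25 for 40S proteins and 4 for the stalk. The array set has 2 parts with different probes, and 42 of the tested member probes lay on part I and 26 on part II.

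The study compared 5 mouse cell lines. IM2 was untransfected. Wild-type Pabpn1 was expressed by WTA (level labelled high) and WTD (labelled low), mutant Pabpn1 by D7E (high) and D7F (low). Pabpn1 is the nuclear poly(A)-binding protein, and the labels tie the study to oculopharyngeal muscular dystrophy, a muscle disease caused by alanine expansion of that protein. Tissue of origin and the mutation itself are not given in the labels. Every line was grown as 3 cultures, and the RNA of each culture was set against 1 common IM2 reference on 4 arrays, 2 dye orientations on each part, which gives 15 cultures and 60 arrays. Since only 1 line stands for each genotype at each level, p-values reflect how far cultures of a line vary, and an effect of genotype or level cannot be told apart from one of the line. All values below are log2 ratios of culture over reference (a difference of 1 is a doubling), taking 10 as the base of the deposited ratios. A gene was called at a Benjamini-Hochberg adjusted p under 0.05 in limma, adjusted over all 9719 probes. In bulk RNA, a lower level per cell cannot be told apart from fewer cells of a kind.

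A mature ribosome holds a single copy of most of its proteins, and cells usually make them in step. Their mRNAs are among the most abundant in growing cells and begin with a run of pyrimidines at the 5' end, the TOP motif, through which the mTOR kinase and the RNA-binding protein Larp1 control their translation and stability. Some of the proteins also act off the ribosome. Rpl5, Rpl11 and Rpl23 bind Mdm2 when ribosome assembly is disturbed, and Rpl13a can leave the ribosome and silence the translation of particular mRNAs.

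The starts of the called genes are shown because the TOP motif lies there. The printed stretches run from 40 bases before to 20 bases after the annotated start (RefSeq, GRCm38.p6). Capitals mark the longest unbroken run of C and T that lies within 20 bases either side of the start. For a gene with several annotated starts, the start with the longest such run was used. Rpl28 (chr7:4792925-4792984, plus strand), Rpl13a (chr7:45128726-45128785, minus strand), Rpl23 (chr11:97782420-97782479, minus strand), Rpl27a (chr7:109519155-109519214, plus strand) and Rps12 (chr10:23787190-23787249, minus strand) were each called on a part I probe in at least 1 comparison. Rplp2 (chr7:141447611-141447670, plus strand), a stalk protein, was called in none and is shown for contrast.
Rpl28: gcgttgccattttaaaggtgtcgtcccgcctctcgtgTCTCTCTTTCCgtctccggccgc
Rpl13a: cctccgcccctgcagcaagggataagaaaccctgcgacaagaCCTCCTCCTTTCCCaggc
Rpl23: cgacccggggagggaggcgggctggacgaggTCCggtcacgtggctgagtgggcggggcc
Rpl27a: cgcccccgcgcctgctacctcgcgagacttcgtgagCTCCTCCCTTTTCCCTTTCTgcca
Rps12: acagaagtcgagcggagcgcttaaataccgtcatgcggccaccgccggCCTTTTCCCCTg
Rplp2: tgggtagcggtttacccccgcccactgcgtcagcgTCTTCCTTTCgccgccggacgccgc

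The run was 11 bases long in Rpl28, 14 in Rpl13a, 20 in Rpl27a, 11 in Rps12, 10 in Rplp2 and 3 in Rpl23. Called and uncalled genes thus both have long runs, and the annotated start of Rpl23 has none in this window. A run of at least 10 bases was present in 19 of the 53 member genes that had a sequence (35.8%) and in 2326 of 27025 genes in all (8.61%). The median longest run was 7 bases in members and 5 in all genes. Where a gene had several annotated starts, members and all genes alike were counted at the start with the longest run. These are descriptions of letters around annotated starts, on the strand that reads as the mRNA, and do not show where transcription began in these cells. Rpl29 is among the 12 member genes named without a sequence.

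Several facts about the arrays bear on all values. Pabpn1 averaged -0.18 ± 0.06 in IM2, while WTA had 2.19 ± 0.29, WTD 1.43 ± 0.07, D7E 1.61 ± 0.14 and D7F 0.92 ± 0.11 (SD, n = 3 each). All transfected lines thus had more Pabpn1 signal than IM2, and the wild-type line labelled low came near the mutant line labelled high. Of the 60 arrays, 9 were of low quality, with over 20% of values at a limit or under 70% of rows filled, and these were 5 arrays of IM2, 3 of WTA and 1 of WTD. Member probes were better measured than most. Among member values, 0.317% on part I and 2.34% on the other lay at a limit, against 7.91% and 11.3% over all probes. The median SD between cultures of a line was 0.20 for members and 0.26 for all probes tested.

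With the 4 transfected lines averaged and set against IM2, 4 ribosomal protein probes were lower and none was higher. Rpl28, Rpl13a, Rpl23 and Rpl29, all of the large subunit, fell by 1.28- to 1.49-fold. The other 64 tested probes passed the test in neither direction. Calls were no more frequent here than elsewhere on the arrays, since 4 of 68 is below the background of 8.83% of all probes called lower, and 6.4% of all probes were called higher. Without adjustment, 13 member probes (19.1%) had p under 0.05, all 13 of them lower. Over all 9719 probes it was 30.6% in both directions together, 1533 probes lower and 1444 higher. Most members lay slightly below IM2. The difference was negative for 52 of 68 (76.5%), against 46.8% of all probes, with a median of -0.12 in members and 0.03 in all probes. The members' quartiles were -0.27 and -0.02. Without the low-quality arrays the adjusted p of the 4 called probes rose to between 0.060 and 0.17, and calls over all probes went from 1480 to 674. The largest positive differences were those of the second probe of Rplp0 (0.77, adjusted p = 0.36), Rpl39 (0.30, adjusted p = 0.21) and Rps25 (0.27, adjusted p = 0.27). Among uncalled probes, the largest negative differences were those of Rpl23 on part II (-0.65, adjusted p = 0.067) and Rpl37 (-0.55, adjusted p = 0.069). Every difference of Rpl37 from IM2 rests on 2 IM2 cultures, at 0.15 (culture 1) and 0.68 (culture 2). IM2 culture 2 had 1.27 with Cy3, on a low-quality array, and 0.10 with Cy5.

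Rpl28, a protein of the large subunit with no bacterial counterpart, was lower in each of the 4 transfected lines. In IM2 its log2 ratios were 0.10, -0.13 and -0.01. WTA had -0.59, -0.84 and -0.87, WTD -0.62, -0.54 and -0.43, D7E -0.36, -0.45 and -0.63, and D7F -0.47, -0.41 and -0.85. Every one of the 12 transfected cultures lay below all 3 IM2 cultures. The transfected lines differed from IM2 by -0.57 (SE 0.11, adjusted p = 0.0052), and each line alone was also called (WTA -0.75, WTD -0.52, D7E -0.47, D7F -0.56). The single-line calls were less firm. The WTA call was lost in 3 of 28 alternative settings, that of WTD in 14, and those of D7E and D7F in 16 each. These 4 comparisons share the IM2 cultures. The difference from the transfected lines was -0.50 with culture RNA in Cy3 alone and -0.64 in Cy5 alone, both called. Without the low-quality arrays it was -0.50 with an adjusted p of 0.061.

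Rpl13a was lower in 11 of the 12 transfected cultures than in any IM2 culture. The share of all probes that separate this far was not counted. Its ratios were 0.16, 0.07 and -0.14 in IM2. WTA had -0.72, -0.70 and -0.44, WTD -0.35, -0.29 and -0.44, D7E -0.34, -0.07 and -0.20, and D7F -0.49, -0.30 and -0.64. D7E culture 2 is the exception and lies among the IM2 values. The mean difference was -0.45 (SE 0.10, adjusted p = 0.014), with -0.65 in WTA and -0.51 in D7F called on their own. The call was lost with 1 dye alone (adjusted p = 0.050 in Cy3 and 0.086 in Cy5), without the low-quality arrays (-0.37, adjusted p = 0.091) and without IM2 culture 1 (-0.38, adjusted p = 0.066).

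Rpl23, a protein on the face of the large subunit that joins the small one, was lower in both lines labelled high than in both labelled low. On part I its ratios were 0.04, -0.05 and -0.04 in IM2, and in the lines labelled high they were -0.61, -0.50 and -0.63 (WTA) and -0.46, -0.48 and -0.67 (D7E). The lines labelled low had -0.19, -0.26 and -0.36 (WTD) and -0.02, -0.12 and -0.18 (D7F). The 6 cultures of the high lines all lay below the 6 of the low lines. The share of all probes that separate in this way was not counted. Only D7F overlapped IM2. The transfected lines differed from IM2 by -0.35 (SE 0.08, adjusted p = 0.010), WTA by -0.56 (adjusted p = 0.0038) and D7E by -0.52 (adjusted p = 0.0064). Neither WTD (-0.25, adjusted p = 0.15) nor D7F (-0.09) was called. The call over all transfected lines was lost with Cy5 alone, without the low-quality arrays (-0.33, adjusted p = 0.060) and with line as a random block (adjusted p = 0.11).

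Rpl29, a small protein at the surface of the large subunit, was the call closest to the threshold. On part II, IM2 had -0.03, 0.03 and 0.18. WTA had -0.29, -0.16 and -0.54, WTD -0.31, -0.59 and -0.37, D7E -0.30, -0.32 and -0.34, and D7F -0.03, -0.06 and -0.38. D7F culture 1 lay inside the IM2 range and D7F culture 2 just below it, and the other transfected cultures lay lower. How common such a split is over all probes was not counted. The difference was -0.37 (SE 0.12, adjusted p = 0.049), and the call held in only 4 of 28 alternative settings, with adjusted p up to 0.41.

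**Figure D1:**
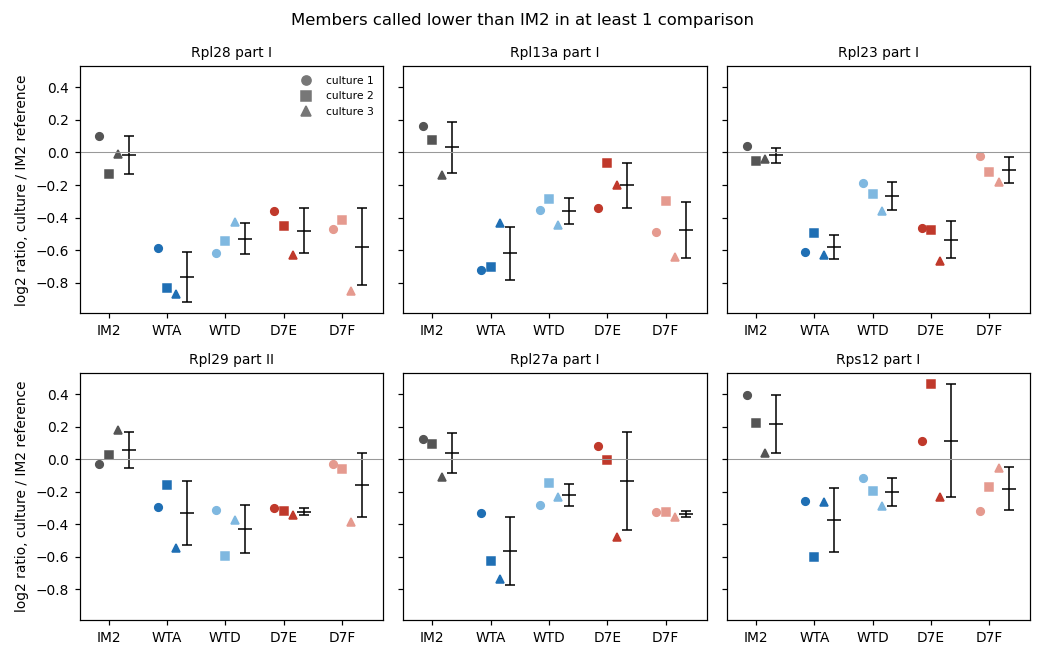
Log2 ratio of culture over the IM2 reference (vertical axis) for 6 ribosomal protein probes in the 5 lines (horizontal axis); points are the 3 cultures of a line, and the black bar is their mean with SD. Rpl28 lies below all IM2 cultures in all 12 transfected cultures, and Rpl23 lies lower in WTA and D7E than in WTD and D7F.

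Cultures were also counted without a model. Of the 61 member probes measured in all 15 cultures, 2 had every transfected culture below every IM2 culture, Rpl28 and Rpl15, and none had every one above. Over all probes measured in 15 cultures, 7.88% lay wholly below and 5.28% wholly above. Rpl15, a protein near the core of the large subunit, was not called (-0.27, SE 0.10, adjusted p = 0.098). Its IM2 cultures had 0.04, 0.19 and -0.08, and the transfected cultures lay between -0.48 and -0.09.

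By subunit, 4 of the 39 probes for 60S proteins fell in the transfected lines, and the median difference was -0.17. That count lies near the 8.83% of all probes called lower. None of the 25 probes for 40S proteins was called, and their median was -0.12. At an unadjusted p under 0.05 there were 3 of them (12%), against 30.6% of all probes. None of the 4 stalk probes was called and their median was 0.08. The difference between subunits was not tested. Members lay below the median of all probes on both parts, by less on part II. Their median was -0.14 on part I, where all probes had 0.11, and -0.11 on part II, where all probes had -0.04. On part I 83.3% of members lay below 0, against 39.2% of all probes, and on part II 65.4% against 53.8%.

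**Figure D2:**
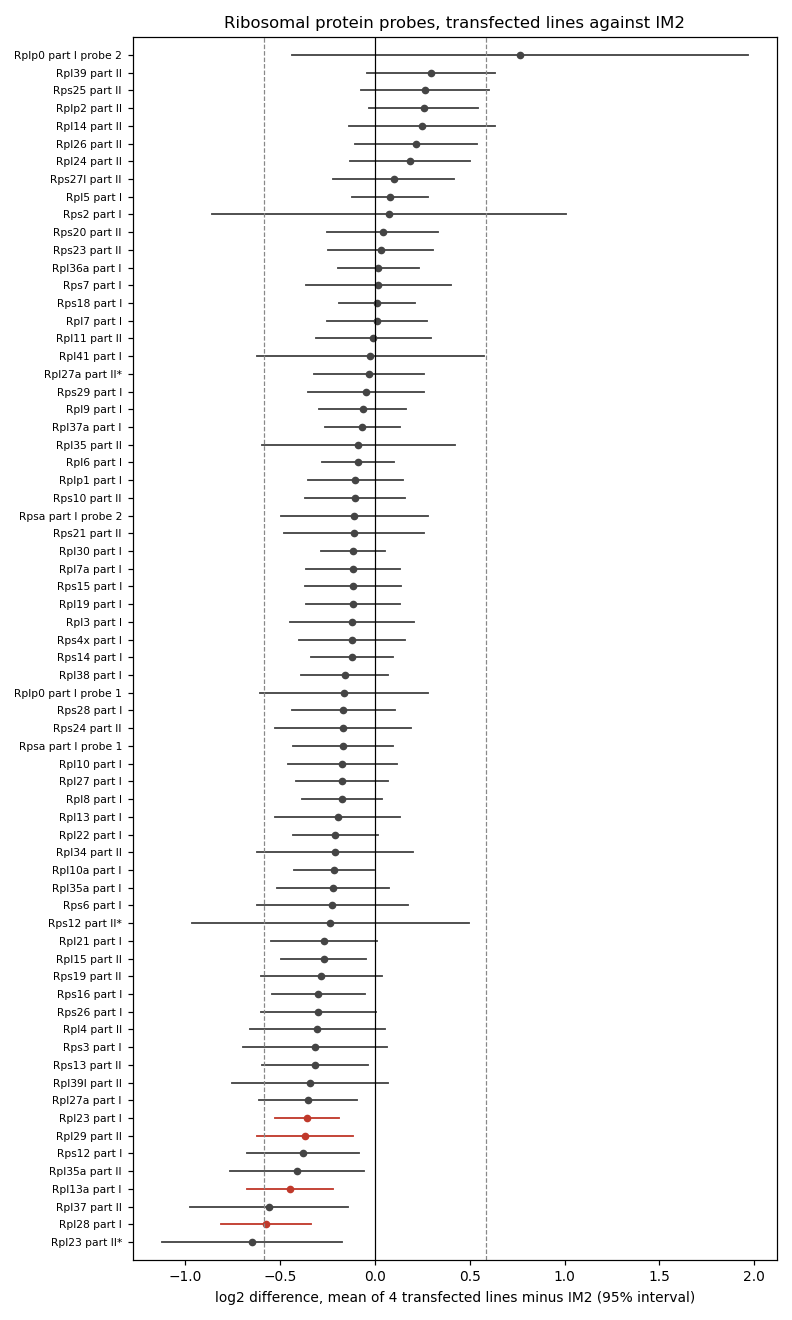
Log2 difference of the mean of the 4 transfected lines minus IM2 (horizontal axis) for the 68 tested ribosomal protein probes (vertical axis), with 95% intervals. Red marks the 4 called probes and dashed lines a 1.5-fold difference. An asterisk marks a probe whose sequence record is in the run that includes small nucleolar RNAs. Most intervals lie within the dashed lines and most points lie left of 0.

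How large a change could have been missed can be read from the intervals. For 43 of the 68 probes (63.2%) the 95% interval of the difference between transfected lines and IM2 lay wholly inside a 1.5-fold change in either direction, against 38.4% of all probes tested. The median distance from the estimate to either end of its interval was 0.29 for members and 0.38 over all probes. The widest belonged to the second probe of Rplp0 (-0.43 to 1.97) and to Rps2 (-0.86 to 1.01), which say little about those genes.

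Well-studied proteins of the small subunit were not called. Rps6, the 40S protein that S6 kinase phosphorylates, differed by -0.22 (SE 0.18, adjusted p = 0.44), with IM2 at 0.03, 0.03 and -0.16 and the lowest cultures in WTA (-0.83) and D7F (-0.74). Rps19, mutated in Diamond-Blackfan anaemia, differed by -0.28 (adjusted p = 0.21). Rps4x, encoded on the X chromosome, differed by -0.12 (adjusted p = 0.57). Rps27l, a paralogue of Rps27 induced by p53, differed by 0.10 (adjusted p = 0.69). Rps16 (-0.30, adjusted p = 0.097) and Rps12 (-0.38, adjusted p = 0.080) came closest among 40S proteins on part I.

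Proteins of the large subunit with roles outside the ribosome were measured too. Rpl5 differed by 0.08 (SE 0.09, adjusted p = 0.60) and Rpl11 by -0.01 (SE 0.14, adjusted p = 0.98), the pair that with the 5S RNA forms the Mdm2-binding particle. Both intervals, -0.12 to 0.28 and -0.31 to 0.30, lie inside a 1.5-fold change. Rpl3, near the peptidyl transferase centre, differed by -0.12 (adjusted p = 0.63), Rpl10, a late-joining protein, by -0.17 (adjusted p = 0.41) and Rpl22 by -0.21 (adjusted p = 0.20). Rpl39l, a paralogue of Rpl39 best known from testis, differed by -0.34 (SE 0.19, adjusted p = 0.24).

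Some probes depended on the dye. Rplp1, a stalk protein, had ratios of 0.61, 0.69 and 0.39 in the 3 IM2 cultures when they were labelled with Cy3, and -0.74, -0.55 and -0.54 when labelled with Cy5. Rpl27 (0.62, 0.85 and 0.47 against -0.23, -0.75 and -0.50) and Rps12 (1.08, 0.96 and 0.58 against -0.29, -0.52 and -0.51) showed the same split. In IM2 cultures, where culture and reference are both IM2 RNA, the split between the orientations was thus wider than the difference of any line's mean from IM2 for these 3 genes. The mean of both orientations, used throughout, was -0.02 for Rplp1 in IM2. Over the members the median difference of transfected lines from IM2 was -0.24 with Cy3 alone and -0.04 with Cy5 alone, while all probes had -0.08 and 0.12. The distance of the members below all probes was thus similar in the 2 orientations, and the medians themselves were not.

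WTA had the most member calls of the 4 lines. In it 6 of the 68 probes were lower and none higher, against 6.37% of all probes lower and 5.17% higher. Besides Rpl28, Rpl13a and Rpl23, they were Rpl27a, Rps12 and a second probe of Rpl23. Rpl27a, a 60S protein, had ratios of 0.12, 0.10 and -0.11 in IM2 and -0.33, -0.63 and -0.74 in WTA (difference -0.60, SE 0.15, adjusted p = 0.023). Rps12 on part I had 0.40, 0.22 and 0.04 in IM2 and -0.26, -0.60 and -0.26 in WTA (-0.59, SE 0.17, adjusted p = 0.044). In both, no WTA culture reached the lowest IM2 culture, a split of 3 against 3 cultures whose share over all probes was not counted. The Rps12 call was lost in 18 of 28 alternative settings, among them leaving out IM2 culture 1 or 2 or WTA culture 1 or 2, and the difference ranged from -0.81 to -0.15. The orientations differed for Rpl27a, at -1.09 with Cy3 and -0.12 with Cy5 (adjusted p = 0.71), and the call was lost for Rpl27a without IM2 culture 1 (adjusted p = 0.062) or WTA culture 3 (adjusted p = 0.055). The members' median in WTA was -0.24, against 0.02 over all probes, with 57 of 68 below 0. Rpl37 (-0.73, adjusted p = 0.060) was among the 3 largest negative differences without a call, and the second Rplp0 probe (0.54), Rps2 (0.20) and Rpl14 (0.18) had the largest positive ones. Without the low-quality arrays 1 member probe remained called in WTA (Rpl23 on part I, -0.53, adjusted p = 0.023), while calls over all probes went from 1121 to 422.

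In WTD 1 member probe was lower, Rpl28 (-0.52, SE 0.14, adjusted p = 0.043), and none higher, where 4.95% of all probes were lower and 2.08% higher. The members' median was -0.18 and that of all probes 0.03. Rpl37 (-0.61, adjusted p = 0.13) had the largest negative difference among members outside the small nucleolar RNA records described below. The part II probes of Rpl23 (-0.62) and Rps12 (-0.55) are such records, and the second Rplp0 probe (0.93, adjusted p = 0.43) had the largest positive difference. The Rpl28 call was lost when any 1 of the 3 WTD cultures was left out.

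D7E had 2 lower probes, Rpl23 and Rpl28 (-0.47, SE 0.14, adjusted p = 0.046), and none higher, against 8.21% lower and 4.13% higher over all probes. D7E was the line in which the members lay closest to all probes, with a median of -0.05 against 0.02 and 42 of 68 below 0. Rpl37 (-0.69, adjusted p = 0.072) had the largest negative and Rps25 (0.34, adjusted p = 0.30) and Rplp2 (0.32, adjusted p = 0.26) had large positive differences that did not pass the test, as did the second Rplp0 probe (0.83).

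D7F had 2 lower probes, Rpl28 (-0.56, SE 0.14, adjusted p = 0.039) and Rpl13a (-0.51, SE 0.13, adjusted p = 0.049), and none higher, with 2.91% of all probes lower and 1.58% higher. The share of members lower, 2 of 68, is close to that background. The call of Rpl13a was lost in 22 of 28 alternative settings and that of Rpl28 in 16, in both cases when any 1 D7F culture was left out. Rpl23 on part II (-0.62, adjusted p = 0.24) also had a large negative difference. The second Rplp0 probe (0.77), Rpl39 (0.35) and Rps25 (0.27) had the largest positive ones, none called. The median was -0.09 in members and 0.05 over all probes.

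**Figure D3:**
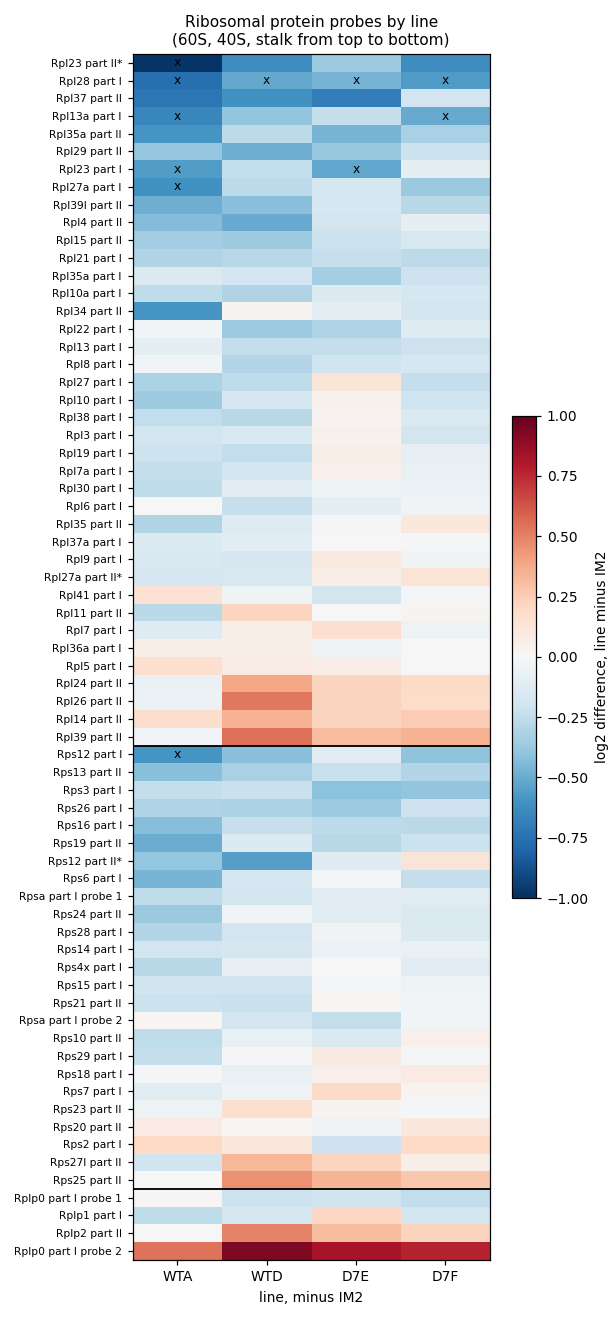
Log2 difference of each transfected line (horizontal axis) minus IM2 for the 68 tested ribosomal protein probes (vertical axis), coloured from -1 (blue) to 1 (red) and grouped as 60S, 40S and stalk. A call is marked x, and an asterisk marks a probe whose sequence record is in the run that includes small nucleolar RNAs. Rpl28 carries an x in all 4 lines, and blue outnumbers red in every line.

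The level of the family as a whole can be followed culture by culture. The median over member probes was 0.04, -0.01 and -0.09 in the IM2 cultures. WTA had -0.19, -0.18 and -0.44, WTD -0.15, -0.18 and -0.23, D7E -0.05, -0.04 and -0.18, and D7F -0.03, -0.21 and -0.06. In these medians over the probes of both parts, all WTA and WTD cultures lay below all IM2 cultures. The mutant lines overlapped IM2, with 2 of 3 cultures of each inside the IM2 range. The separation of WTA and WTD from IM2 held on part I alone but not on part II alone. On part II, WTD culture 2 (0.11) lay above every IM2 culture (0.04 at most). WTD culture 3 (-0.05) and WTA culture 2 (-0.16) lay above IM2 culture 3 (-0.17) there. Over both parts WTA culture 3 was the lowest of all. Without it the members' median difference of WTA from IM2 was -0.16 in place of -0.24. The medians of all probes stayed between -0.05 and 0.07 in the 15 cultures.

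**Figure D4:**
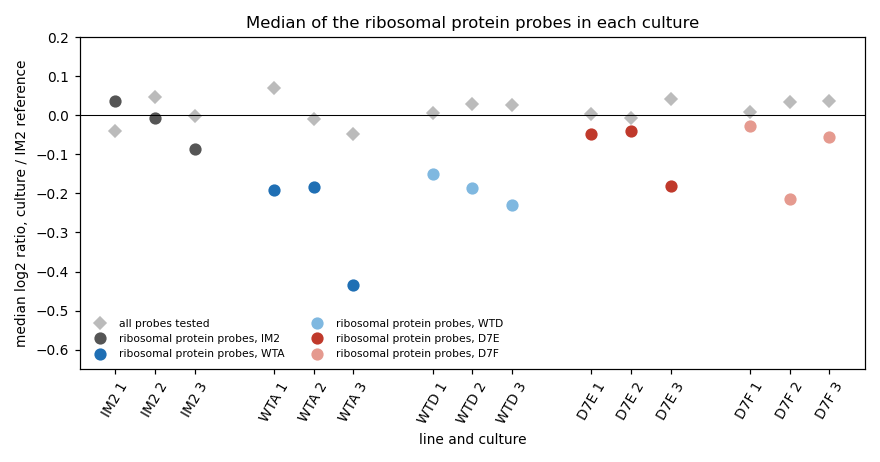
Median log2 ratio over the ribosomal protein probes (coloured circles) and over all probes tested (grey diamonds) in each of the 15 cultures (horizontal axis). Members lie lowest in WTA culture 3 at -0.44. All WTA and WTD cultures lie below the IM2 cultures over the probes of both parts, which does not hold on part II alone.

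Mutant and wild-type lines did not separate on any single ribosomal protein. No member probe was called (limma), against 0.195% of all probes. Without adjustment, 3 members (4.41%) had p under 0.05, against 6.68% of all probes. The mutant lines nevertheless lay higher in most members. The difference was below 0 for only 15 of the 68 (22.1%), against 49.3% of all probes, with a median of 0.11 in members and 0.00 in all probes. The largest positive differences were those of Rps12 on part II (0.47, adjusted p = 0.80), Rpl4 (0.33, adjusted p = 0.74) and Rpl23 on part II (0.31, adjusted p = 0.80), and the largest negative were those of Rps3 (-0.17), Rps2 (-0.15) and Rpl41 (-0.15). The interval lay inside a 1.5-fold change for 61 of 68 probes. Over the alternatives run the median stayed between 0.08 and 0.13.

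Between lines labelled high and low, Rpl23 on part I was the 1 member called (-0.37, SE 0.07, adjusted p = 0.045), against 0.381% of all probes. Its values are those given above, low in WTA and D7E. The call held in 8 of 28 alternative settings, and the difference stayed negative in all 28, from -0.39 to -0.18. Rpl37 (-0.31, adjusted p = 0.65) and Rpl39 (-0.31, adjusted p = 0.62) were next, and Rplp1 (0.15), Rpl27 (0.15) and the first probe of Rplp0 (0.13) had the largest positive differences. The median over members was -0.03, and its sign turned in 4 alternative settings. The array parts differed. On part I the members' median was 0.008, with 18 of 42 below 0, against 51.8% of all probes. On part II it was -0.15, with 24 of 26 below 0, against 54.3% of all probes. WTD is a line labelled low, and 13 of these 26 probes stood high in its culture 2, as described below. The part II count without that culture was not made.

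The genotype by level interaction, taken as WTD and D7E against WTA and D7F, had no member call (limma), against 2.37% of all probes. Without adjustment, 7 members (10.3%) had p under 0.05, against 14.3% of all probes. Rpl34 (0.35, adjusted p = 0.39), Rps27l (0.34, adjusted p = 0.23) and Rpl26 (0.31, adjusted p = 0.29) had the largest positive differences. Rpl34, Rps27l and Rpl26 are part II probes that stood high in WTD culture 2 (0.68, 0.67 and 0.69), described below. Rpl22 (-0.26, adjusted p = 0.19), Rps2 (-0.25) and Rps12 on part II (-0.21) had the largest negative differences. The test of any difference among the 5 lines called 3 member probes, Rpl23 on part I (adjusted p = 0.0082), Rpl28 (adjusted p = 0.029) and Rpl13a (adjusted p = 0.037), against 10.2% of all probes.

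On part II, 1 culture stood apart within the family. In WTD culture 2, 13 of the 26 member probes exceeded the mean of the other WTD cultures by more than 0.4 (50%), against 9.51% of 4427 part II probes, a threshold and a set chosen after the values were seen. The proteins were of both subunits and the stalk. Rpl39, at the exit tunnel, had -0.04, 0.71 and 0.17 in WTD against -0.18, -0.19 and -0.45 in IM2. Rpl26 had 0.02, 0.69 and 0.10 against -0.18, -0.16 and -0.44, and Rplp2, the partner of Rplp1 in the stalk, -0.01, 0.55 and 0.13 against -0.17, -0.18 and -0.48. In these 3 genes culture 2 is the highest of the line and IM2 culture 3 the lowest of IM2. Rplp2 (0.50, adjusted p = 0.089), Rpl26 (0.53, adjusted p = 0.10), Rpl39 (0.55, adjusted p = 0.10) and Rps25 were the 4 members with an unadjusted p under 0.05 for a higher level in WTD, and none was called. Over all probes, 994 of 9719 had such a p in that direction. On part I the members' median in this culture was -0.21, between the -0.14 and -0.24 of the other WTD cultures, whereas on part II it was 0.11 against -0.22 and -0.05.

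**Figure D5:**
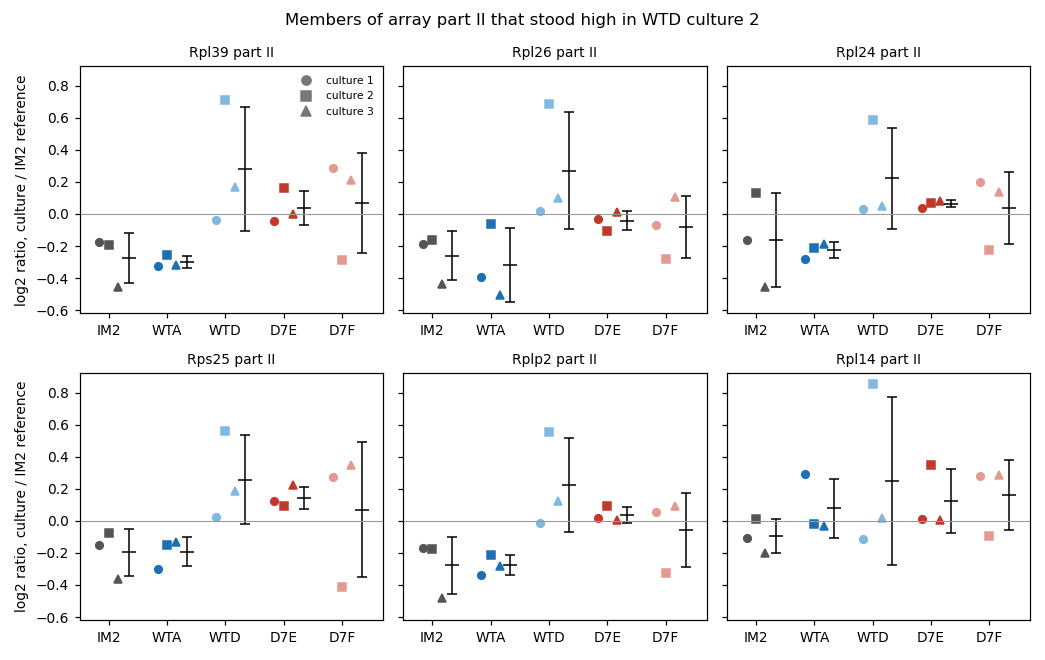
Log2 ratio of culture over the IM2 reference (vertical axis) for 6 ribosomal protein probes of part II in the 5 lines (horizontal axis); points are the 3 cultures of a line, and the black bar is their mean with SD. WTD culture 2 (square) is the highest value in each panel, at 0.71 for Rpl39 and 0.55 for Rplp2.

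There were 6 genes with 2 tested probes, which shows how far the measurement depends on the probe. Both Rpsa probes, for the 40S protein also known as the laminin receptor, gave small differences from IM2 (-0.17 and -0.11). Both Rpl35a probes were lower without passing the test (-0.22, adjusted p = 0.30, and -0.41, adjusted p = 0.11). The Rplp0 probes, for the base of the stalk, had opposite signs (-0.16 and 0.77, neither called), and the second had -0.22 and -2.29 in the 2 IM2 cultures where it was measured. For Rpl23, Rpl27a and Rps12 the part II probe carries a sequence record in a run of 23 records of which 7 are named as small nucleolar RNAs and 14 as protein-coding genes, many of which hold small nucleolar RNAs in their introns. What these probes detect, host mRNA or small nucleolar RNA, is not given. The Rpl23 probe of this kind was lower in WTA (-0.98, SE 0.28, adjusted p = 0.045), in the same direction as the part I probe. That call rests on 2 IM2 cultures (-0.305 and 0.30) and 2 WTA cultures (-1.05 and -0.92), and it held in 8 of 21 settings. In IM2 the orientations had opposite signs, at -1.03 with Cy3 and 0.42 with Cy5 in culture 1, and 1.05 and -0.45 in culture 2. The Rpl27a probe of this kind had -0.03 (adjusted p = 0.90) against -0.35 (adjusted p = 0.065) on part I, and the Rps12 probe -0.23 (adjusted p = 0.68) against -0.38.

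In all, 5 member probes were not tested because too few cultures had values in both orientations. They were Rpl3l, the paralogue of Rpl3 found in striated muscle, Rps4l, the part II probe of Rps18, and the records of Rpl32 and Rps16 in the run just described. Rpl3l had -0.12 and 0.95 in 2 IM2 cultures, 0.81, 1.18 and 0.51 in WTA, and -0.50 and -0.51 in D7E, a spread within IM2 that leaves no comparison. Rps18 on part I, tested, differed by 0.01 (adjusted p = 0.94).

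Lists of related genes are read here against the 8.83% of all probes called lower and 6.4% called higher in the transfected lines. Among 45 tested probes for translation factors and other TOP mRNAs, 2 rose and 3 fell in the transfected lines, with a median of 0.01. Pabpc1, the cytoplasmic poly(A)-binding protein, fell by 0.90 on the log2 scale (SE 0.09, adjusted p = 8.32e-05), from -0.02 ± 0.16 in IM2 to between -1.05 ± 0.08 (WTA) and -0.84 ± 0.05 (WTD; SD, n = 3). Eif3k (-0.52, adjusted p = 0.011) and Eif3f (-0.38, adjusted p = 0.037), subunits of the initiation factor that binds the 40S subunit, were also lower, and the termination factor Etf1 was higher (0.70, adjusted p = 0.011).

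Among 59 probes for ribosome assembly and RNA polymerase I, 8 rose and 1 fell, with a median of 0.06. Gnl2, a nucleolar GTPase of 60S assembly (0.81, adjusted p = 0.0043), Ltv1, a 40S assembly factor (0.40, adjusted p = 0.018), and Polr1a, the largest subunit of RNA polymerase I (0.46, adjusted p = 0.019), rose. Taf1d, a polymerase I initiation factor, fell by 0.95 on the log2 scale (adjusted p = 0.0017). Among 24 probes for growth signalling to the ribosome, 3 rose and 7 fell, with a median of -0.01. The mTOR inhibitor Ddit4 (-1.26, adjusted p = 5.4e-04), the translation repressor Eif4ebp1 (-0.81, adjusted p = 0.0020) and Mxi1, which opposes Myc (-0.57, adjusted p = 0.0022), fell, and Mlst8, a subunit of the mTOR complexes, rose (0.81, adjusted p = 0.0029). Other called genes of this list, named after their values were seen, were Mtor itself, which fell (-0.48, adjusted p = 0.015), and Sesn1, an inhibitor of mTOR signalling, which rose (0.59, adjusted p = 0.016). Mitochondrial ribosomal proteins, a family of like size, had 3 of 65 probes higher and 0 lower, with a median of 0.13. Mrps31 (0.55, adjusted p = 0.0015), Mrps22 (0.57, adjusted p = 0.0038) and Mrpl36 (0.48, adjusted p = 0.010) were the 3, a share below that of all probes called higher. The cytoplasmic and mitochondrial families thus had medians on opposite sides of the median of all probes, a difference that was not tested.

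Markers of cell types moved with the same contrast. Of 32 muscle marker probes 9 were higher and 1 lower, and the summed list, as its median per culture, ran from -0.20 to 0.11 in IM2 and from 0.14 to 0.47 in the transfected cultures. Of 6 fibroblast marker probes 4 were lower (Col3a1, Fbln1, Col1a1 and Col1a2), with medians from 0.02 to 0.14 in IM2 and from -1.44 to -0.42 in the transfected cultures. No probe was called on the adipocyte (2 tested), smooth muscle (3), endothelial (2), neural (4) or bone and cartilage (1) lists, and no leukocyte marker was tested. The part of these shifts, and of array quality, in the ribosomal protein differences was not tested.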

How the data were processed

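Per the labels, total RNA of each culture was hybridised with a common IM2 reference on 2-colour arrays. The deposited ratios of culture over reference, taken as log10, were used as the authors gave them, with values stopping at -2 and 2. No base is stated, and base 10 was assumed from the limits, and log2 values are the deposited values times 3.32. Folds hold only if this is right, whereas signs and calls do not depend on it. How the authors normalised the arrays and corrected background was not given in the sources used here. Values at a limit were treated as not measured, identical rows were collapsed, and the 2 dye orientations of a culture were averaged. The dye of WTA culture 3 (part I) is taken from its channel sources, which its titles contradict. One part I array of D7F culture 1 is described as high, against its title, which was used.

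Probes with at least 2 cultures in every line were fitted with limma (version 3.58.1, R 4.3.3), part by part with all 5 lines, and p-values were adjusted over both parts. Member probes matched by Entrez identifier numbered 71, and 2 matched by annotated name alone. Named with values were all called members, the 3 largest differences in each direction per comparison and genes with 2 tested probes. A list of members of known role was named too. Up to 4 genes were named from each other list, except that Mtor and Sesn1 were also named from the growth signalling list. The members and lists were chosen with earlier results of these data known. Scripts were tested on simulated data. Alternatives covered limits, centring, scaling, dye, array quality, filters, variance model, blocks and leaving out each culture. The number of arrays limits precision. Culture numbers do not pair the samples.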

Additional observations from a re-analysis of the deposited data

Results flagged for a closer look

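Rpl23 on part I was singled out because its difference from IM2 was not the same in the lines labelled high as in those labelled low. The mean of WTA and D7E lay below that of WTD and D7F by a log2 difference of -0.37 (adjusted p = 0.045 in limma). All 6 cultures of the high lines lay below all 6 of the low lines, a count from the same values as the call. The call was lost in 20 of 28 alternative settings, with the highest adjusted p at 0.56. Each level is represented by 2 lines, 1 per genotype.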

How the results depend on the processing

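Counts below are ribosomal protein probes called. No value changed sign among the calls named above, but most counts are small and moved with the settings, and the cause was not tested. Transfected lines against IM2 (4) gave 9 with the IM2 sign turned on every array, 1 with Cy5 alone, 0 without the low-quality arrays and 2 with line as a random block. WTA (6) gave 3 with limit values kept, 1 each with arrays centred and scaled, with Cy5 alone and without the low-quality arrays, and 0 with only WTA and IM2 in the fit. WTD (1) gave 4 with arrays centred and scaled, 2 with the IM2 sign turned, 3 with probes measured in all 15 cultures, and 0 with limit values kept, Cy3 alone, Cy5 alone, 1 dye enough, low-quality arrays left out, the replicate block or only its own lines. D7E (2) gave 4 with the IM2 sign turned, 0 with Cy5 alone or only its own lines, and 1 with limit values kept, arrays centred and scaled, Cy3 alone, 1 dye enough or low-quality arrays left out. D7F (2) gave 4 with the IM2 sign turned, 1 with arrays centred, centred and scaled, averaged per gene, robust variances or the replicate block, and 0 with limit values kept, Cy3 alone, Cy5 alone, 1 dye enough, low-quality arrays left out or only its own lines. High against low (1) gave 0 with limit values kept, arrays centred, centred and scaled, either dye alone, 1 dye enough, low-quality arrays left out, the replicate block and line as a random block. Any difference among the lines (3) gave 1 with limit values kept, arrays centred and scaled, 1 dye enough or low-quality arrays left out, and 0 with Cy3 or Cy5 alone. Leaving out 1 culture at a time gave 2 to 6 calls for the transfected lines (lowest without IM2 culture 1), 3 to 6 for WTA (lowest without IM2 culture 1), 0 to 2 for WTD, 1 to 3 for D7E, 0 to 2 for D7F, 0 to 1 for high against low and 1 to 3 among the lines (lowest without IM2 culture 1). Mutant against wild-type and the interaction stayed at 0 in every setting run. The members' median difference kept its sign in every setting run for the transfected lines (-0.24 to -0.04), WTA (-0.33 to -0.12) and WTD (-0.28 to -0.08), and turned positive with Cy5 alone in D7E (0.05) and D7F (0.02). High against low turned from -0.03 to 0.08 with arrays centred and scaled, 0.02 with arrays centred, 0.03 without WTA culture 3 and 0.00049 without D7F culture 1. The interaction went from 0.07 to -0.0036 with arrays centred and scaled. Same-numbered cultures of different lines correlated from -0.24 to 0.47, with 8 of 30 pairs over 0.1, so the numbers were not taken as a pairing; with the replicate block the transfected lines had 5 calls.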
